A study of Mus musculus with 8 samples.

Results

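Amino acids and small peptides leave the gut lumen through carriers of the solute carrier (Slc) superfamily, and the genes of 9 of its families were examined here in enterocytes, the absorptive cells of the small intestine. The members were all probe sets of the array whose only gene symbol belongs to the families Slc1, Slc3, Slc6, Slc7, Slc15, Slc16, Slc36, Slc38 or Slc43. No filter on their values was applied, but the families were chosen with earlier results of these data known. They came to 58 probe sets of 38 genes, out of 18443 probe sets in all, and no probe set of the Slc36 family was among them. Of 20 carriers listed for their known place in the intestinal epithelium, 14 were measured, while Slc6a19, Slc7a11, Slc16a10, Slc36a1, Slc43a1 and Slc43a2 were not analysed here.

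The arrays came from male C57BL/6 mice aged 2.5 to 3.0 months kept on a standard diet. IE-Cpr-null mice, in which NADPH-cytochrome P450 reductase (Cpr), the electron donor of microsomal P450 enzymes, is deleted in the intestinal epithelium, were compared with wild-type (WT) littermates. The labels name no Cre driver and no allele of the control animals. Each genotype had 4 arrays, each with RNA pooled from 2 of 8 mice. Every SE below therefore rests on the spread between pools, which limma draws towards that of all probe sets. All values are on the log2 scale, with each probe set set to 0 at the median of its 4 WT values, which removes the level of expression. Genes can therefore not be ranked by abundance, and the enterocyte identity of the cells cannot be read as a level. In a bulk preparation of this kind, fewer cells of a type and less RNA per cell cannot be told apart.

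As background, peptides enter the enterocyte through the proton-coupled carrier Slc15a1, and free amino acids through brush border carriers of the Slc6, Slc1 and Slc36 families or the exchanger formed by Slc3a1 and Slc7a9. They leave towards the blood through exchangers in which the heavy chain Slc3a2 is paired with a light chain of the Slc7 family, and through uniporters. Slc38 carriers take up glutamine and other neutral amino acids with sodium, and Slc16 carriers move lactate, ketone bodies and related monocarboxylates.

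Transcripts of other cells set some pools apart. Of 11 marker lists fixed for such cells and states, pancreatic acinar genes moved most with genotype, with a mean over 8 genes of -0.68, 1.69, -5.49 and 0.69 on the WT arrays and -2.39, -5.42, -5.55 and -5.43 on the IE-Cpr-null arrays. WT replicate 3 thus lay among the IE-Cpr-null pools. Muscle and stroma markers were high on IE-Cpr-null replicate 1 and hepatocyte markers on IE-Cpr-null replicates 2 and 3, with values given beside the genes below. Array means ran from -0.094 to 0.43 for lymphocyte, -1.14 to 0.88 for macrophage and dendritic, -0.26 to 0.086 for goblet, -0.27 to 0.069 for enteroendocrine and -0.075 to 0.081 for neuron and glia markers. Lower on average in IE-Cpr-null were 11 of 11 macrophage and dendritic, 9 of 10 goblet and 7 of 8 enteroendocrine probe sets, against 42.5% of all probe sets. Higher were 11 of 13 lymphocyte and 4 of 4 neuron and glia probe sets, against 57.5%. Some genes have several probe sets, so these are not independent counts. Of the 106 probe sets of the 11 lists, 0 passed an adjusted p of 0.05 in limma. An unadjusted p under 0.05 was reached by 15, all lower in IE-Cpr-null. Of these, 8 were acinar, 3 enteroendocrine and 2 goblet, with 1 each in the macrophage and dendritic list and the proliferation list. Over all probe sets the shares were smaller, 7.4% in either direction and 4.47% lower. The part of these cells in the transporter values was not tested, beyond the values given without single pools.

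No transporter probe set differed between the genotypes at an adjusted p of 0.05. In limma 0 of 58 passed, where 4 of all 18443 probe sets did (0.0217%). At an unadjusted p under 0.05 there were 3 members, all lower in IE-Cpr-null, or 5.17%, against 7.4% of all probe sets in either direction and 4.47% of them lower. Those 3 were probe sets of Slc6a6, Slc7a8 and Slc6a20a. The 4 IE-Cpr-null arrays lay wholly outside the 4 WT arrays in 1 member (1.72%), against 4.11% of all probe sets and 2.47% of them lower. The difference (IE-Cpr-null minus WT) was above 0 in 31 members and below 0 in 27. Its median was 0.012 over the members and 0.016 over all probe sets. The shares of members were below those of all probe sets by each of these rules, apart from the 3 lower ones (5.17% against 4.47%).

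The intervals show how large a difference the 4 pools a genotype could have hidden. In 44 of the 58 members the 95% interval lay within a 1.5-fold change in either direction, and in 52 within 2-fold. Over all 18443 probe sets the counts were 15626 and 17484, a larger share in each case. The members with wider intervals included all 3 probe sets of Slc1a1, the glutamate and aspartate carrier, and that of Slc15a2, a high-affinity peptide carrier. A missed threshold in these does not show that the genotypes were alike.

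**Figure D1:**
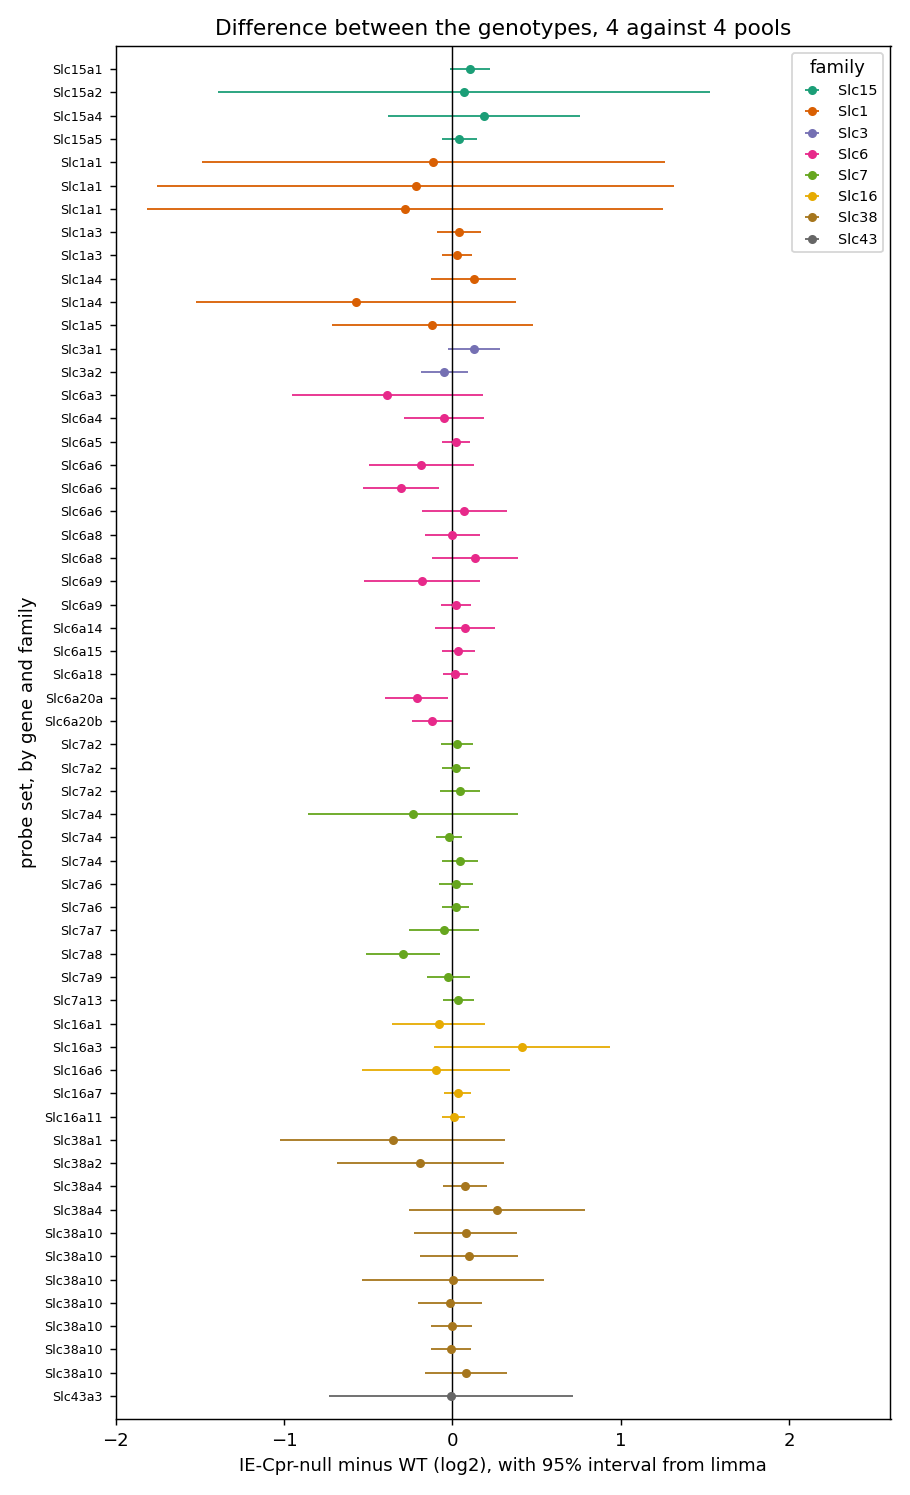
Difference between the genotypes (IE-Cpr-null minus WT, log2, horizontal axis) for each of the 58 transporter probe sets, ordered by family, with bars for the 95% interval from limma. Intervals of 3 probe sets, of Slc6a6, Slc6a20a and Slc7a8, lie wholly below 0, and the widest are those of Slc1a1 and Slc15a2.

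Among the peptide carriers, Slc15a1, which takes up peptides at the brush border, was close to its WT values on every array. It stood at -0.017, -0.13, 0.039 and 0.017 on the WT arrays and at 0.039, 0.14, 0.018 and 0.12 on the IE-Cpr-null arrays. The groups overlapped, and the difference of 0.10 (SE 0.0512, 95% interval -0.016 to 0.22) missed the threshold in limma (adjusted p = 0.745). Slc15a2 was uneven within both genotypes, with WT arrays at 1.32, -0.80, -0.097 and 0.097 and IE-Cpr-null arrays at 1.57, 0.56, -0.65 and -0.70. Its difference of 0.068 (SE 0.626) was far smaller than that spread. Slc15a4, which carries histidine and peptides out of lysosomes, differed by 0.19 (SE 0.244), and Slc15a5 by 0.041 (SE 0.0447). All 4 members of the family were thus higher on average, and none passed the threshold.

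The heavy chains were read together with their light-chain partners. Slc3a1 is the heavy chain that brings the light chain Slc7a9 to the brush border, where the pair exchanges cystine and cationic amino acids. Slc3a1 stood at -0.020, 0.020, 0.031 and -0.041 in WT and at -0.072, 0.20, 0.16 and 0.21 in IE-Cpr-null. IE-Cpr-null replicates 2, 3 and 4 lay above every WT array and replicate 1 below every one. The difference was 0.13 (SE 0.0672, adjusted p = 0.774), and 0.19 without replicate 1 (adjusted p = 0.142). Slc7a9 stood at 0.038, 0.013, -0.026 and -0.013 in WT and at -0.17, 0.018, 0.022 and 0.043 in IE-Cpr-null, a difference of -0.025 (SE 0.0542). Here too replicate 1 was the lowest array, and without it the difference was 0.025.

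Slc3a2, the heavy chain of the basolateral exchangers, stood at -0.024, -0.097, 0.024 and 0.059 in WT and at -0.19, 0.007, 0.019 and -0.066 in IE-Cpr-null. The difference of -0.048 (SE 0.0593) lay within the spread. Its partner Slc7a7, which exports cationic amino acids, stood at 0.031, -0.076, 0.073 and -0.031 in WT and at -0.32, 0.052, 0.015 and 0.045 in IE-Cpr-null, with a difference of -0.050 (SE 0.0888). In all 4 of these genes IE-Cpr-null replicate 1 was the lowest of the 8 arrays. That array had the highest mean of 10 muscle and stroma markers, 3.98, where the remaining pools of that genotype stood at -0.44 to -0.42 and the WT pools at -0.27 to 1.58. It also had the lowest mean of 8 enterocyte markers, -0.099 against -0.026 to 0.032 elsewhere. The part of these markers in the low values was not tested.

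Slc7a8, the light chain that exports neutral amino acids across the basolateral membrane with Slc3a2, had one of the lowest p-values among the members. It stood at -0.060, -0.20, 0.093 and 0.060 in WT and at -0.23, -0.48, -0.16 and -0.42 in IE-Cpr-null. Replicate 3 of IE-Cpr-null lay above WT replicate 2, so the groups overlapped. The difference of -0.29 (SE 0.0946, 1.23-fold, 95% interval -0.51 to -0.073) had an unadjusted p of 0.0157 and an adjusted p of 0.501 in limma. With array weights, where 4.02% of all probe sets passed, it was -0.40 (adjusted p = 0.0339). The other Slc7 members differed by -0.23 to 0.046. Among them Slc7a2, a cationic amino acid carrier, had 3 probe sets at 0.023 to 0.046, and Slc7a6, another partner of Slc3a2, had 2 at 0.019 and 0.020. The 3 probe sets of Slc7a4 disagreed in sign, at -0.23, -0.020 and 0.045, each within its spread.

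**Figure D2:**
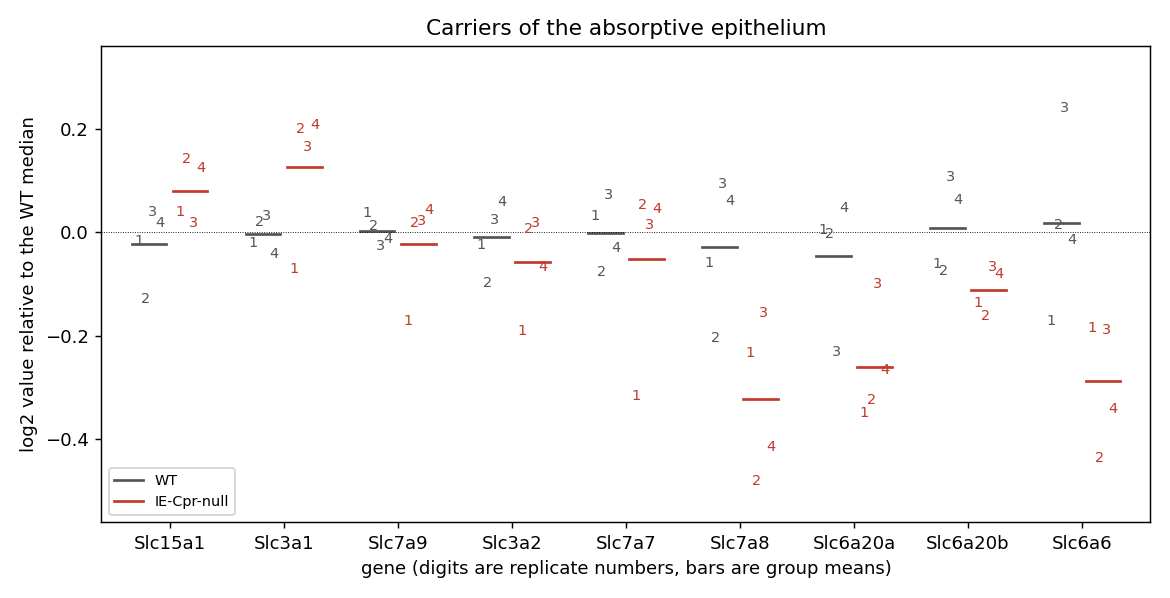
Log2 value relative to the WT median (vertical axis) of 9 carriers known from the absorptive epithelium, 1 probe set each, with digits for the replicate number of each array and bars for group means. Replicate 1 is the lowest IE-Cpr-null array for Slc3a1, Slc7a9, Slc3a2, Slc7a7 and Slc6a20a, and only the Slc6a6 groups do not overlap. The Slc6a6 probe set drawn is the one with the lowest p. The other Slc6a6 probe sets, whose groups overlap, are not drawn.

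The sodium- and chloride-coupled carriers of the Slc6 family held the only member probe set whose groups did not overlap. Slc6a6 imports taurine, the amino acid that is joined to bile acids, and its leading probe set had the lowest p of all members. It stood at -0.17, 0.014, 0.24 and -0.014 in WT and at -0.18, -0.44, -0.19 and -0.34 in IE-Cpr-null. All 4 IE-Cpr-null arrays were below all WT arrays, the highest of them by only a small step below WT replicate 1. The difference was -0.30 (SE 0.0976, 1.24-fold, 95% interval -0.53 to -0.077), with an unadjusted p of 0.0153 and an adjusted p of 0.498. With array weights it was -0.35 (adjusted p = 0.0355). The 2 other Slc6a6 probe sets did not share its pattern. The first of them stood at 0.51, 0.0014, -0.0014 and -0.14 in WT and at -0.14, -0.13, -0.081 and -0.017 in IE-Cpr-null, with WT replicate 1 above the rest and a difference of -0.19 (SE 0.134). The other stood at 0.092, 0.014, -0.069 and -0.014 in WT and at 0.041, 0.39, -0.15 and 0.021 in IE-Cpr-null, with IE-Cpr-null replicate 2 above the rest and a difference of 0.070 (SE 0.109). The probe sets of this gene therefore gave no common size or sign.

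Slc6a20a and Slc6a20b are close relatives that carry imino acids such as proline, and binding of one transcript to the probes of the other was not tested. Slc6a20a stood at 0.004, -0.004, -0.23 and 0.046 in WT and at -0.35, -0.32, -0.099 and -0.27 in IE-Cpr-null. WT replicate 3, the WT pool low in acinar transcripts, lay among the IE-Cpr-null values. Its difference of -0.21 (SE 0.0799, 1.16-fold) had an unadjusted p of 0.0301 and an adjusted p of 0.594. Slc6a20b stood at -0.062, -0.075, 0.11 and 0.062 in WT and at -0.14, -0.16, -0.067 and -0.081 in IE-Cpr-null, a difference of -0.12 (SE 0.0528, adjusted p = 0.694). Both genes were thus lower on average in IE-Cpr-null, with overlapping groups in each. Without WT replicate 3 the difference was -0.27 for Slc6a20a (adjusted p = 0.347), -0.23 for the leading Slc6a6 probe set (adjusted p = 0.61) and -0.25 for Slc7a8 (adjusted p = 0.676). IE-Cpr-null replicate 1 was the lowest array for Slc6a20a. Without that pool the differences, in the same order, were -0.18, -0.34 and -0.32 (limma adjusted p = 0.493, 0.313 and 0.325).

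The remaining Slc6 members differed by no more than their spread. Slc6a8, the creatine carrier, had probe sets at 0.13 (SE 0.109) and -0.0019 (SE 0.0696). Slc6a4, the serotonin carrier that ends the signal of enteroendocrine serotonin, differed by -0.051 (SE 0.102). Slc6a9, a glycine carrier, had probe sets at -0.18 (SE 0.148) and 0.021 (SE 0.037). Slc6a14, a broad carrier of neutral and cationic amino acids, stood at 0.11, 0.095, -0.14 and -0.095 in WT and at 0.16, 0.095, -0.070 and 0.076 in IE-Cpr-null, a difference of 0.074 (SE 0.0773). Slc6a3, the dopamine carrier, had a difference of -0.39 (SE 0.242). WT replicate 1 stood at 1.01 and the other 7 arrays between -0.39 and 0.026, and without that pool the difference was -0.13 (SE 0.0928, adjusted p = 0.729).

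The Slc1 family carries glutamate and neutral amino acids. Slc1a1 imports glutamate and aspartate, and it varied more between pools than any other member. Its 3 probe sets put the IE-Cpr-null arrays in the same order, highest on replicate 1 and then replicates 4, 3 and 2. The probe set with the widest span stood at -0.050, -0.0014, 1.14 and 0.0014 in WT. On the IE-Cpr-null arrays it stood at 1.63, -1.55, -0.40 and 0.54. From the highest to the lowest IE-Cpr-null pool this is a 9.06-fold span. The probe set with a 7.11-fold span stood at -0.067, -0.12, 0.78 and 0.067 in WT and at 1.28, -1.55, -0.29 and 0.76 in IE-Cpr-null. The one with a 7.76-fold span stood at -0.12, -0.61, 0.53 and 0.12 in WT and at 0.84, -2.12, -0.66 and 0.74 in IE-Cpr-null. WT replicate 3 was the highest WT pool in all 3. The SD between pools was 1.25 to 1.39 in IE-Cpr-null and 0.42 to 0.58 in WT. The genotype differences of -0.11 (SE 0.589), -0.22 (SE 0.658) and -0.28 (SE 0.657) were small beside that spread. Without IE-Cpr-null replicate 2 they turned to 0.42, 0.32 and 0.33, with an adjusted p of 0.943 for each.

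Transcripts of the crypt, where epithelial cells divide, varied over the same arrays. The mean of the 3 measured crypt base markers, Ascl2, Lyz1 and Mmp7, was -0.20, 0.082, 0.67 and -0.082 over the WT pools and 1.38, -0.87, -0.20 and -0.58 over the IE-Cpr-null pools. That of 4 proliferation markers was -0.18, 0.096, 0.69 and -0.15 over the former and 0.90, -0.70, 0.15 and -0.31 over the latter. Single genes did not all follow these means. Pcna, of the proliferation list, stood at 0.027, -0.0145, 0.0145 and -0.065 in WT and at -0.24, -0.35, -0.17 and -0.31 in IE-Cpr-null. Ascl2 ran only from -0.12 to 0.25 over its probe sets, against -1.54 to 2.93 for Mmp7. The mean of Slc1a1 over its probe sets was -0.079, -0.24, 0.82 and 0.062 on WT pools, against 1.25, -1.74, -0.45 and 0.68 on IE-Cpr-null pools. WT replicate 3 and IE-Cpr-null replicate 1 were the highest arrays of their group in all 3 series, and IE-Cpr-null replicate 2 the lowest. IE-Cpr-null replicate 4 went the other way, high in Slc1a1 and low in both lists. The part of crypt transcripts in the Slc1a1 values was not tested.

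**Figure D3:**
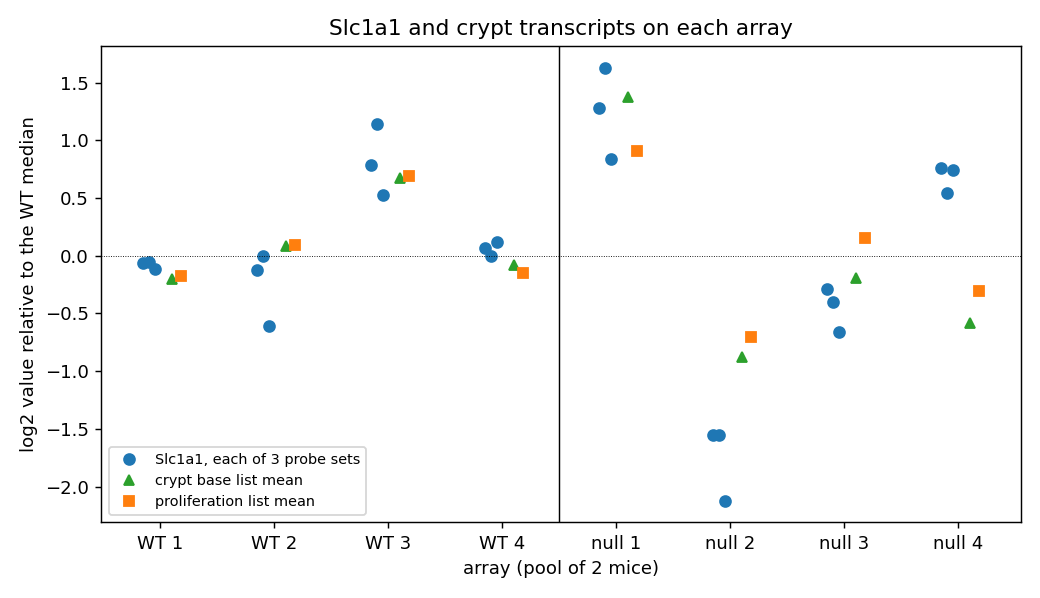
Log2 value relative to the WT median (vertical axis) of the 3 Slc1a1 probe sets (circles) on each of the 8 arrays, with the mean of the crypt base list (triangles) and of the proliferation list (squares). WT replicate 3 and IE-Cpr-null replicate 1 are high and IE-Cpr-null replicate 2 is low in all of them, while IE-Cpr-null replicate 4 is high in Slc1a1 only.

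Slc1a5, a carrier of glutamine and other neutral amino acids, stood at -0.12, -0.022, 0.24 and 0.022 in WT and at 0.67, -0.60, -0.074 and -0.35 in IE-Cpr-null. It too was highest on WT replicate 3 and IE-Cpr-null replicate 1 and lowest on IE-Cpr-null replicate 2. The difference was -0.12 (SE 0.257), and -0.37 without IE-Cpr-null replicate 1 (adjusted p = 0.379). Slc1a4, a carrier of alanine, serine and cysteine, had the largest negative difference of all members at -0.57 (SE 0.407, adjusted p = 0.86) in 1 of its 2 probe sets. That probe set stood at -0.025, 1.17, -0.12 and 0.025 in WT and at 0.16, -0.045, -1.32 and -0.041 in IE-Cpr-null. WT replicate 2 was high and IE-Cpr-null replicate 3 low, with the other 6 arrays close together. The second Slc1a4 probe set differed by 0.13 (SE 0.108) and was raised on IE-Cpr-null replicate 1 alone, at 0.47. Slc1a3, the glutamate carrier of glia, had probe sets at 0.040 and 0.026.

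The Slc16 family moves monocarboxylates, and none of its probe sets passed the test. Slc16a1, which moves lactate, butyrate and ketone bodies, stood at 0.052, 0.061, -0.20 and -0.052 in WT and at 0.16, -0.19, -0.39 and -0.043 in IE-Cpr-null, a difference of -0.081 (SE 0.119). Slc16a3, a lactate exporter of glycolytic cells, had the largest positive difference of all members. It stood at -0.48, 0.21, 0.012 and -0.012 in WT and at 0.38, 0.89, -0.083 and 0.20 in IE-Cpr-null. The groups overlapped, and the difference of 0.41 (SE 0.225, 95% interval -0.11 to 0.94) missed the threshold (adjusted p = 0.781). Slc16a6, a ketone body exporter, differed by -0.097 (SE 0.188), and Slc16a7 and Slc16a11 by 0.030 and 0.0074.

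In the Slc38 family of sodium-coupled neutral amino acid carriers, no probe set passed the test. Slc38a2, a system A carrier that rises in many cells when amino acids are short, stood at 0.094, -0.025, 0.025 and -0.19 in WT and at -0.11, -0.87, 0.19 and -0.072 in IE-Cpr-null. The difference of -0.19 (SE 0.212, adjusted p = 0.86) rested on IE-Cpr-null replicate 2 and was 0.027 without it. Slc38a1, a glutamine carrier, stood at -1.11, 0.067, 0.33 and -0.067 in WT and at -0.45, -0.67, -0.49 and -0.58 in IE-Cpr-null. Its IE-Cpr-null pools lay close together below WT replicates 2, 3 and 4, but WT replicate 1 was lower still, and the difference was -0.36 (SE 0.286). The 7 probe sets of Slc38a10 differed by -0.012 to 0.098, and IE-Cpr-null replicate 1 was the lowest of all arrays in 5 of them.

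Slc38a4 is a system A carrier best known from the liver. One of its 2 probe sets stood at 1.01 on IE-Cpr-null replicate 2 and between -0.026 and 0.044 on the other 7 arrays. The mean of 8 hepatocyte markers was 6.01 on that array, 3.81 on IE-Cpr-null replicate 3, where Slc38a4 stood at -0.0093, and at most 0.27 on the other 6. Alb, the albumin gene, was 9.32 and 7.91 on those 2 arrays. The second Slc38a4 probe set showed no such peak. It stood at 0.097, 0.075, -0.094 and -0.075 in WT and at 0.13, 0.089, 0.012 and 0.068 in IE-Cpr-null, a difference of 0.074 (SE 0.0568). The part of hepatocyte transcripts in the Slc38a4 value was not tested. Slc43a3, a purine nucleobase carrier and the only measured member of its family, stood at 0.088, -0.088, -0.22 and 0.99 in WT and at 0.79, 0.079, -0.21 and 0.072 in IE-Cpr-null. Single pools of each genotype were high, and the difference was -0.0095 (SE 0.311).

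**Figure D4:**
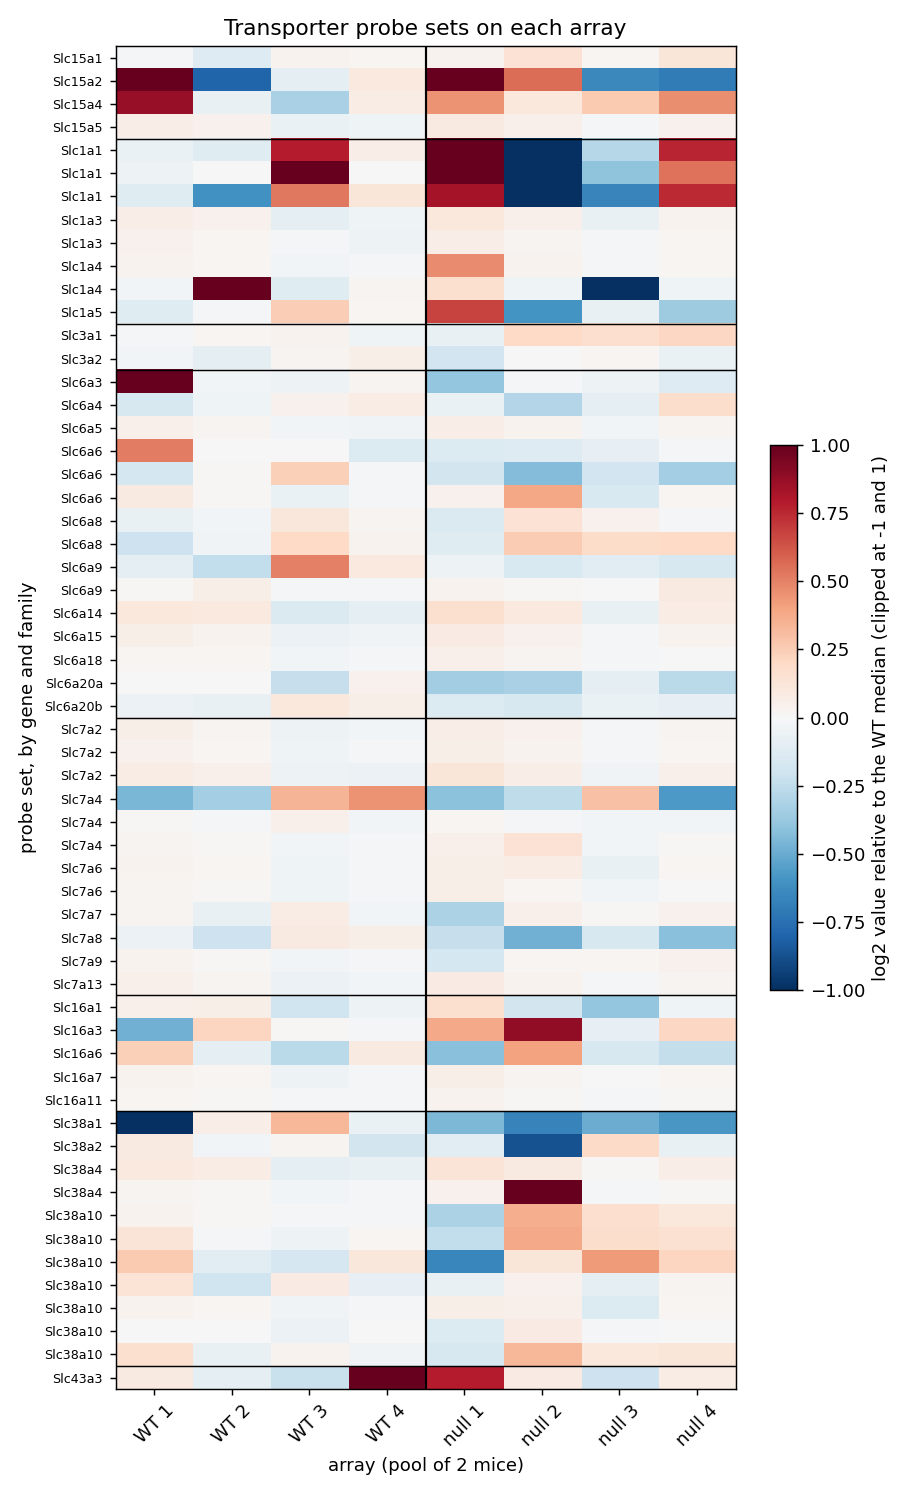
Log2 value relative to the WT median (colour, red above and blue below 0, clipped at -1 and 1) of the 58 transporter probe sets (rows, by family) on the 4 WT and 4 IE-Cpr-null arrays (columns). Strong colours sit in a single array for some probe sets, among them those of Slc6a3 and one of Slc38a4. For Slc15a2 they sit in arrays of both genotypes, and for Slc1a1 mainly in IE-Cpr-null arrays and WT replicate 3. No family is coloured alike across all IE-Cpr-null arrays.

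A group of members followed the arrays' own medians rather than showing a pattern of their own. Array medians over all probe sets were 0.031, 0.015, -0.025 and -0.017 for the WT pools, and for the IE-Cpr-null pools 0.036, 0.019, -0.013 and 0.014. Over the 8 arrays 15 members of 12 genes had a correlation above 0.9 with them (25.9%), against 18.5% of all probe sets, from which the medians themselves were taken. They included Slc1a3, Slc6a5, Slc6a14, Slc6a15, Slc6a18, Slc7a2, Slc7a13, Slc15a5 and Slc16a7. All 15 were higher in IE-Cpr-null, by 0.0074 to 0.074, whereas of the other 43 members 16 were. After the median of each array was subtracted, these 15 differences ran from -0.0059 to 0.061, and over all members 29 were higher and 29 lower. The count of higher members thus depended on the centring of the arrays.

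Genes linked to the carriers were read from 5 lists, with 115 probe sets of 68 genes. None passed in limma (0 of 115), and 9 had an unadjusted p under 0.05, 1 higher and 8 lower (7.83%, against 7.4% of all probe sets). Brush border and cytosolic peptidases and carrier partners, which release the amino acids and peptides to be taken up, had 0 of 21 probe sets at that level, with a median of 0.032. Anpep, an aminopeptidase of the brush border, differed by 0.068 (SE 0.0524) and Dpp4, a dipeptidyl peptidase, by 0.086 (SE 0.045) and -0.065 (SE 0.109) in its 2 probe sets. The amino acid response, meaning Atf4, genes it switches on when amino acids are short and sensors of that state, also had 0 of 39, with a median of 0.050. Of these 39 probe sets of 20 genes, 30 were higher on average (76.9%), against 57.5% of all probe sets. As 11 of the genes have several probe sets, up to 4 each, these are not independent counts. The monocarboxylate list had 1 of 8, Pdk4, a kinase that blocks pyruvate oxidation, at -1.65 (SE 0.438, adjusted p = 0.378).

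Enzymes of glutamine, arginine and related amino acid metabolism had 25 of 28 probe sets lower on average in IE-Cpr-null (89.3%, against 42.5% of all probe sets), with a median of -0.16 against 0.016. At an unadjusted p under 0.05 there were 5 lower (17.9%, against 4.47%). The 28 probe sets stand for 16 genes, and 5 of them for Aldh18a1, an enzyme of proline synthesis, so they are not independent counts. Got2, the mitochondrial aspartate aminotransferase, stood at -0.15, -0.003, 0.003 and 0.049 in WT and at -0.24, -0.38, -0.39 and -0.46 in IE-Cpr-null. The groups did not overlap, and the difference of -0.34 (SE 0.0637) had an adjusted p of 0.246. A second Got2 probe set differed by -0.40 (SE 0.115, adjusted p = 0.432). Arg2, the mitochondrial arginase, differed by -0.20 (SE 0.0551) and -0.19 (SE 0.0616) in its 2 probe sets, with groups apart in the first. Glul, glutamine synthetase, differed by -0.30 (SE 0.0996) and -0.13 (SE 0.12). In the list of mTORC1 amino acid sensing, with a median of 0.0098 over 19 probe sets, Sesn1, a stress-induced sestrin, differed by -0.35 (SE 0.0479, adjusted p = 0.125), -0.28 (SE 0.0886) and -0.18 (SE 0.125). Its relative Sesn3 differed by 0.39 (SE 0.118, adjusted p = 0.471).

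Promoter sequence was looked up for the element through which Atf4 acts with C/EBP factors, since several amino acid carriers are known to answer to it. RefSeq windows of GRCm38.p6, from 250 bases before to 50 after each start, were held for 26 of the 38 genes (37 windows). The letters TGATGNAAN, on either strand, were found in 4 of those windows (10.8%) and in 3.95% of all 32851. The 4 windows belong to Slc7a7, with overlapping windows of 2 starts, Slc1a4 and Slc15a5. They are shown because they tie members to the amino acid response list, with matching letters in capitals, 5′ to 3′ along the gene, and in Slc1a4 as the reverse complement. All 3 stretches lie on the minus strand, at chr14:54417922-54418100, chr11:20332695-20332733 and chr6:138079867-138079905.
Slc7a7: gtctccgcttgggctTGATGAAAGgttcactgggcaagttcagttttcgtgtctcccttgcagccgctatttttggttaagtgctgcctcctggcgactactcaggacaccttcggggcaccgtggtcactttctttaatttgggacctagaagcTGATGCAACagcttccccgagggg
Slc1a4: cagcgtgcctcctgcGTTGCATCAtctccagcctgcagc
Slc15a5: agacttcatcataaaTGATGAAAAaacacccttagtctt
The differences of these genes, -0.050 for Slc7a7, -0.57 and 0.13 for Slc1a4 and 0.041 for Slc15a5, all lay within the spread between pools. A match of letters is a description of the sequence and no evidence that a factor binds there.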

How the data were processed

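Enterocytes were isolated from dissected small intestine, and biotin-labelled RNA was hybridised to single-colour arrays, per the labels' protocols. The authors deposited log2 values per probe set made with GCRMA, per the submitters' processing notes (no version or settings: not given in the sources used here). From the values, every probe set had also been centred on the median of the 4 WT arrays (0 within 1e-06), so no dim probe set could be left out and signal over background is unknown. Transcripts of the deleted gene are not analysed here and gave no check of the genotypes. Probe sets were named from the platform annotation, with 16689 carrying 1 symbol, 616 several and 1138 none listed. The files name no genome build.

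Sample titles gave the groups and replicate numbers. All 18443 probe sets were tested with limma 3.58.1 in R 4.3.3 (2 group means, eBayes, prior of 1.54 degrees of freedom, two-sided), with Benjamini-Hochberg adjustment over all of them. The script was tested on simulated data. The number of arrays limits the precision.

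Members and lists were chosen with earlier results of these data known. The values of every array were given for members past the threshold, members with an unadjusted p under 0.05 and groups that do not overlap, the lowest p of each family, and the 20 listed intestinal carriers. From linked lists, up to 4 members with an unadjusted p under 0.05 were named. Other members, the Slc38a4 probe set high on IE-Cpr-null replicate 2, Anpep, Dpp4, Alb, Pcna and Aldh18a1 were named after their values were seen. Marker lists of 11 cell types and states were read as array means. The 20 alternatives were quantile normalization, median centring, array weights, the replicate number as a block, a robust prior, gene means, no probe sets with shared probes, a filter that kept probe sets with an SD over the median SD, a minimum of 1.5-fold, each array left out, and the arrays rich in muscle (WT 2, IE-Cpr-null 1), hepatocyte (IE-Cpr-null 2 and 3) or crypt transcripts (WT 3, IE-Cpr-null 1) left out. The last was chosen after seeing the data.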

Additional observations from a re-analysis of the deposited data

Results flagged for a closer look

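In 9 of 116 groups of 4 arrays (58 probe sets in 2 genotypes, 7.76%), 1 array stood apart from the other 3 by more than Dixon's 95% critical value allows. For independent, normally distributed values about 1 in 20 such groups would be flagged. The share over all probe sets was not computed, and the groups share arrays and genes, so no excess can be read from this count. IE-Cpr-null replicate 1 was the array apart in 4 of them, low in Slc3a1 (-0.072, others 0.16 to 0.21), Slc7a7 (-0.32, others 0.015 to 0.052) and Slc7a9 (-0.17, others 0.018 to 0.043) and high in 1 Slc1a4 probe set (0.47, others -0.017 to 0.032). It was also the array richest in muscle and stroma markers, whose part in these values was not tested. IE-Cpr-null replicate 2 was high in Slc38a4 (1.01, others -0.0093 to 0.044), and IE-Cpr-null replicate 3 low in the other Slc1a4 probe set (-1.32, others -0.045 to 0.16). Among WT arrays, replicate 1 was high in Slc6a3 (1.01, others -0.047 to 0.026), replicate 2 in Slc1a4 (1.17, others -0.12 to 0.025) and replicate 3 in Slc1a1 (1.14, others -0.050 to 0.0014).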

How the results depend on the processing

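Of the 20 alternatives, array weights alone called transporter probe sets: 3 passed, Slc3a1 (0.21), Slc6a6 (-0.35) and Slc7a8 (-0.40), where 741 of all probe sets passed (4.02%) against 4 in the reported fit. The other 19 called 0 members, with 1 to 29 calls over all probe sets, or over genes for gene means, and leaving out each array gave 0 throughout. With each array left out, 2 to 6 members had an unadjusted p under 0.05 and the median difference ran from 0.0051 to 0.032. A filter that kept probe sets with an SD over the median SD left 30 members, with a median of -0.089. Of 22 named probe sets, 10 kept their sign in every alternative that held them, among them Slc15a1 (0.068 to 0.14), Slc3a1, Slc6a20a (-0.27 to -0.14), Slc6a20b, Slc7a8 and the leading probe set of Slc6a6. The other 12, Slc1a1 among them, changed sign in some. The replicate block, the robust prior, the minimum fold and both filters of probe sets leave each difference unchanged. A kept sign in these was therefore fixed in advance. The replicate block called 0 members. Same-numbered arrays had correlations of deviations from their group means of -0.058, -0.041, 0.26 and 0.13. The highest with an array of another number were 0.095, 0.34, 0.083 and 0.039. Same-numbered arrays were thus closer for replicates 3 and 4 only, which does not decide whether the numbers pair the arrays.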

Other observations

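Of a list of ileal transcripts chosen after seeing the data, 3 genes were measured. Fabp6, the ileal bile acid binding protein, and Slc10a2, the ileal bile acid carrier, followed the arrays' medians over the 8 arrays (correlations of 0.989 and 0.993), so their values give no information on the position of the pools along the gut. Slc51a, a basolateral bile acid exporter, ran from -0.38 to 0.087 over the arrays and differed by -0.20 (SE 0.0813, limma adjusted p = 0.645).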
